A study of Mus musculus with 30 samples.

Results

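The comparison described here set cells that had received an siRNA pool against Kdm5c beside cells that had received a non-targeting siRNA, called scramble, 24 h after transfection. The libraries were chosen by day and siRNA alone, 5 Kdm5c siRNA and 5 scramble libraries, and so make up 10 of the 30 of the series. The other 20 hold the same siRNAs at 48 and 72 h, and were used here to follow the genes called at 24 h. They also entered the fit that estimated the spread of each gene, and so bear on the calls at 24 h. All cells were 3T3-L1, a mouse fibroblast line that stores fat once it is induced to differentiate into adipocytes. They were sub-confluent when reverse-transfected with 50 nM siRNA (Dharmacon ON-TARGET) and Lipofectamine RNAiMAX on day −3, and those described here were collected on day −2, before any induction. The model is therefore 1 cell line, 1 pool of siRNAs and 1 dose, and the labels of these libraries name no other siRNA against Kdm5c. Whether the replicates came from separate cultures is not in the labels. Each p-value therefore rests on how much the libraries of a group differ, in the fit over all 30 libraries, which may be technical spread.

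KDM5C is an enzyme of chromatin that removes methyl groups from lysine 4 of histone H3, a mark found at active promoters and enhancers, and its gene lies on the X chromosome. An siRNA guide loaded on an Argonaute protein cuts a transcript that it matches along its whole length. The same guide can also lower other transcripts, most often when a few bases near its 5′ end, the seed, pair with their 3′ untranslated regions (3′ UTRs). Falls 24 h after transfection can therefore come from the lost demethylase or from the guides of the pool. Rises can come from the lost demethylase, from the loss of other transcripts that the guides of the pool lowered, or from the guides of scramble, which is itself an siRNA. A comparison of 1 pool with scramble does not part these.

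Kdm5c itself checks the labels. Its level in CPM, a library's reads for a gene scaled to the same total in every library, was 156, 159, 157, 157 and 155 in the scramble libraries and 25.8, 25.8, 26.7, 25.9 and 23.3 in the Kdm5c siRNA libraries. The groups were far apart, with 16.2% of the scramble level left (log2 fold change −2.62, SE 0.04, edgeR quasi-likelihood test, Benjamini-Hochberg adjusted p = 4.63e-33; exact permutation p = 0.00794, two-sided, the smallest that 5 against 5 can give). The closest relatives did not fall. Kdm5b was 72.4, 70.6, 68.8, 71.1 and 67.7 CPM against 79.1, 79.1, 79.1, 77.5 and 78.6, a rise of 0.17 on the log2 scale, and Kdm5a rose by 0.10, with groups that overlapped.

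The 10 libraries held 26303560 to 30553807 reads, of which 99.8% lay in the count table, and a gene with no read in a library can have been present at up to 0.098 to 0.114 CPM there (a count of 3, counting error only). The first principal component of the 10 libraries (35% of the variance) parted the siRNAs, and on the second (18.9%) scramble replicates 4 and 5 and Kdm5c siRNA replicate 2 stood apart. Some of the counts below are also given without Kdm5c siRNA replicate 2 and scramble replicate 5, a choice made after the data were seen. Of 12 preadipocyte and fibroblast markers, 10 reached 1 CPM, with summed levels of 22400 to 23400 CPM in scramble and 23700 to 25400 in Kdm5c siRNA libraries. Summed markers of mature adipocytes were 10.3 to 12.7 and 9.73 to 13 CPM with Lep and Cfd at 0, and those of macrophages and blood 4.82 to 7.31 and 6.37 to 9.12 CPM with Adgre1 and Cd3e among those at 0. Endothelial, muscle, epithelial and neural markers summed to under 2 CPM in each library, with Myod1, Myog, Pax7, Epcam and Sox10 at 0. In bulk libraries, fewer cells of a type and less RNA per cell cannot be told apart.

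Across all genes, changes at 24 h were many and small. Of 12016 genes tested, 2765 were called at an adjusted p under 0.05 (23%), 1346 higher (11.2%) and 1419 lower (11.8%). Few moved far: 140 were called and higher by over 0.32 on the log2 scale (1.17%), and 142 were called and lower by over 0.32 (1.18%). These 140 and 142 genes are named the larger rises and the larger falls below. The single genes described as the largest falls and rises are those that were called, reached 2 CPM and had groups that did not overlap, 15 each way. Over 1.5-fold there were 16 rises and 20 falls, and over 2-fold 4 falls, Kdm5c, Calm3, Map4 and Nrn1, and 0 rises. The 5 libraries of 1 siRNA did not overlap those of the other in 1937 genes (16.1%). With Kdm5c siRNA replicate 2 and scramble replicate 5 both left out, 1032 genes were called higher and 1146 lower. The larger falls came from transcripts with a median level of 10.3 CPM in scramble, the larger rises from transcripts at 6.1 CPM.

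**Figure D1:**
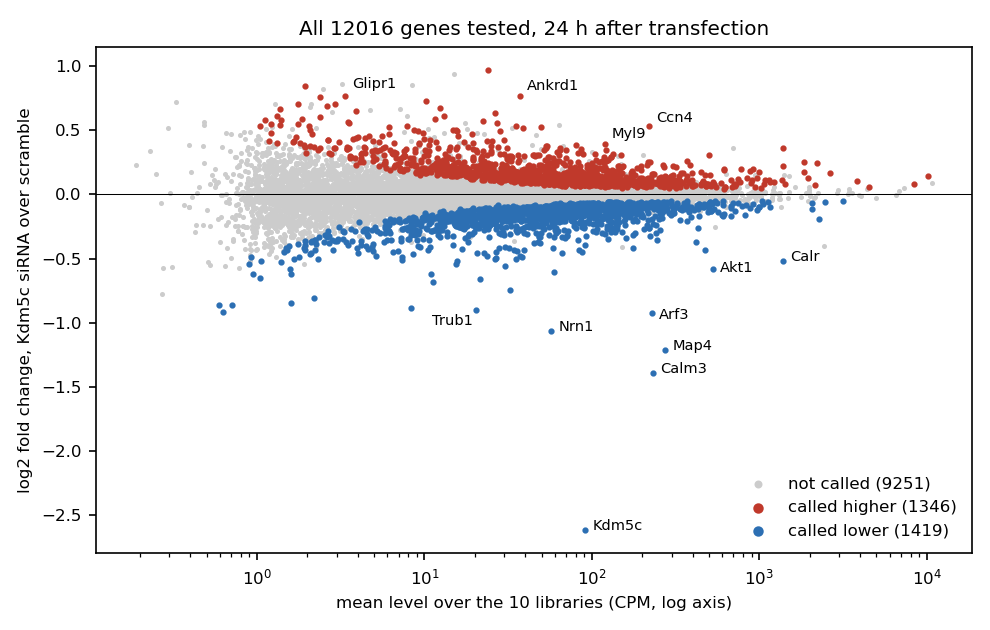
Each point is 1 of the 12016 genes tested, with its mean level over the 10 libraries (CPM, log axis) and its log2 fold change, Kdm5c siRNA over scramble, at 24 h. Grey points were not called, red were called higher (1346) and blue called lower (1419). Kdm5c at −2.62, Calm3, Map4 and Nrn1 lie below the rest, and no called rise reaches 1 on the log2 scale.

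Some of the early falls held certain short words in their 3′ UTRs, and the sites are shown first because 10 of the 15 largest falls hold one. Most genes called lower held none of the 5 rarer words described below. Of 16042 words of 7 bases found in the 3′ UTRs of at least 50 of 10972 searched genes, the 6 with the lowest rank-based scores of the 24 h fold changes are numbered here in that order. Word 1 was CTGCGGA, word 2 was ACGGGCA, word 3 was CCTGGGG, word 4 was CCGGGAA, word 5 was CGGGCAA, and word 6 was CTGCGCC. The fold changes of this day picked the words, and what follows describes the genes that hold them and tests nothing. All 6 also occur in the Kdm5c transcript, against 29.2% of all words searched, and words 2 and 5 overlap there by 6 bases. The sites below are 21 bases, 5′ to 3′ along the transcript, from the GRCm38 transcripts of GENCODE M21, with the word in capitals; those of Kdm5c lie in its coding sequence and the others in 3′ UTRs.
Kdm5c, transcript position 1101, across an exon junction: taagactCTGCGGAaaaaaga
Kdm5c, chrX:152242140-152242160, plus strand: atggacgACGGGCAaagagac
Kdm5c, chrX:152248465-152248485, plus strand: aagctacCCGGGAAtatactc
Kdm5c, chrX:152271497-152271517, plus strand: ggctgaaCTGCGCCaacggct
Calm3, chr7:16915441-16915461, minus strand: aacaaacCGGGCAAtattgtg
Map4, chr9:110083078-110083098, plus strand: gaaaatcCCGGGAAttttatc
Map4, chr9:110081858-110081878, plus strand: gacgttcCGGGCAAatgccag
Arf3, chr15:98738891-98738911, minus strand: gtgctggCTGCGCCctgagct
Trub1, chr19:57488939-57488959, plus strand: tctgtgaCTGCGGAaccctgg
Trub1, chr19:57488668-57488688, plus strand: ttaaatcCCGGGAAtcaatac
Gem, chr4:11713902-11713922, plus strand: caagtgcACGGGCAatgaatg
Trib2, chr12:15792522-15792542, minus strand: agagtaaACGGGCAataagcc
Echdc1, chr10:29344814-29344834, plus strand: aaatgagCTGCGGAagtcatt
Pdcd7, chr9:65359460-65359480, plus strand: ataaaagCCGGGAAaagagca
Plagl2, chr2:153228551-153228571, minus strand: tgcaaatCCGGGAAgcaggtg
Mfap3, chr11:57531369-57531389, plus strand: tattaaaACGGGCAatccaga
The guide sequences of the pool are not in the sources used here, so whether these words match the guides was not tested.

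CCTGGGG is common, in the 3′ UTRs of 1903 genes (17.3%), and the other 5 are rarer, in 151 to 336 genes each. At least 1 of the 5 rarer words was in 1131 genes, 10.3% of those searched. Among these, 290 were called lower (25.6%) and 102 higher (9.02%), beside 12.5% lower and 11.9% higher of all searched genes. Of the 126 larger falls searched, 51 held a rarer word (40.5%), and of the 123 larger rises searched, 13 did (10.6%). Their median log2 fold change was −0.03, so most genes with such a word hardly moved. ACGGGCA was in 233 genes, of which 76 were called lower (32.6%), CGGGCAA in 151 with 47 lower (31.1%), CCGGGAA in 298 with 90 lower (30.2%) and CTGCGGA in 290 with 80 lower (27.6%). CTGCGCC stood nearer to the background, with 70 of 336 genes lower (20.8%).

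The plot of cumulative fold changes gives the same words at 24 h and in the libraries of 48 h, which did not choose them. At 48 h, 333 of the 1131 genes with a rarer word were called lower (29.4%), beside 17.6% of all searched genes, and at 72 h 284 (25.1%), beside 16.3%. These later libraries received the same siRNA pool, so they repeat the measurement and not the reagent. The words are rich in G and C, and fold changes fell with the GC content of the 3′ UTR: in 5 equal groups of genes the median went from 0.03 (lowest GC content, 5.24% of genes called lower) through 0.02, 0.00 and −0.01 to −0.03 (highest, 20.8% called lower). In these groups, from lowest to highest GC content, 24.7%, 17.9%, 22.4%, 25.8% and 33.4% of genes with a rarer word were called lower. Of genes without one, 4.49%, 8.28%, 10.7%, 13.7% and 18.8% were. These are values of 24 h, the day that picked the words. How much of the lower share of genes with a rarer word goes with GC content was not tested. Which words led did depend on the score: ranked by the difference of medians, 0 of the 6 remained and the leading words were GC-rich ones such as GGCGCGG, whereas without the genes called over 1.5-fold lower 5 of the 6 remained.

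**Figure D2:**
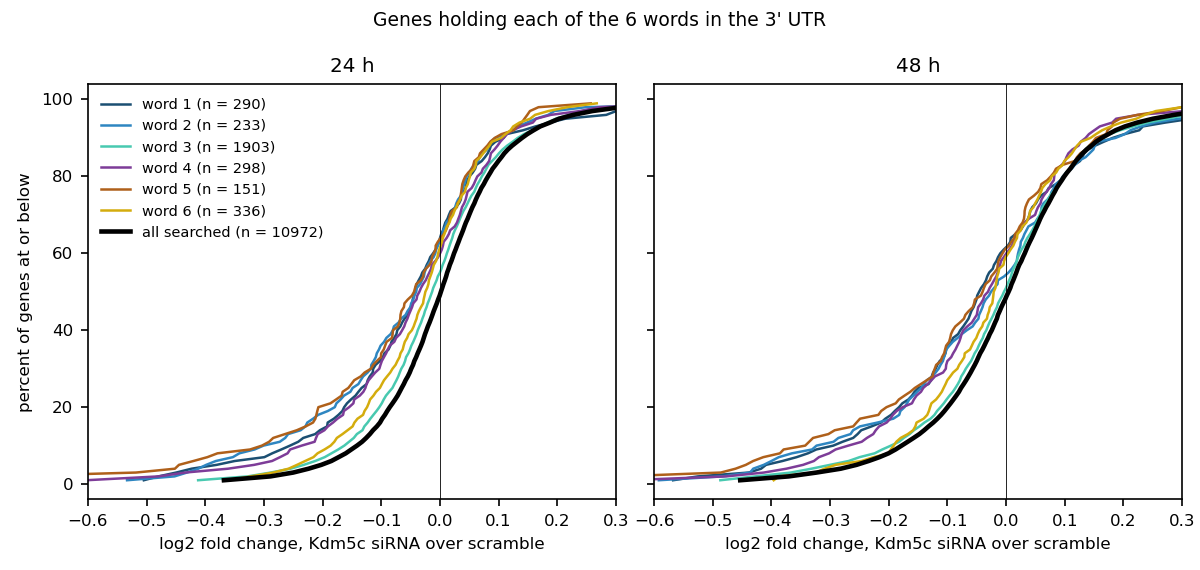
Cumulative curves of the log2 fold change (Kdm5c siRNA over scramble) at 24 h (left) and 48 h (right) for genes whose 3′ UTR holds each of the 6 words, numbered in the order of their scores, and for all 10972 searched genes (black). Curves of words 1, 2, 4 and 5 lie to the left of the black curve over most of their length on both days, that of word 3 (1903 genes) close to it.

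Calm3, a gene that encodes calmodulin, the calcium sensor of the cell, had the largest fall after Kdm5c (chromosome 7, 16915379 to 16924114, minus strand). It was 337, 341, 335, 336 and 332 CPM in scramble and 126, 127, 138, 123 and 123 CPM in Kdm5c siRNA libraries, with every scramble library above every Kdm5c siRNA library. The log2 fold change was −1.39 (SE 0.03, adjusted p = 4.63e-33, edgeR quasi-likelihood test). The related Calm2 was not called, at 296.0 and 306.6 CPM on average (log2 fold change 0.06, adjusted p = 0.0668, edgeR). Reads that fit more than 1 of these similar genes could have been assigned differently, as the counting rule is not given in the sources used here.

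Map4 encodes a protein that binds and steadies microtubules (chromosome 9, 109931460 to 110083955, plus strand). It was 377, 388, 383, 385 and 387 CPM in scramble and 167, 165, 166, 162 and 164 CPM in Kdm5c siRNA libraries. These are tight groups with no overlap, and the log2 fold change of Map4 was −1.21 (SE 0.02, adjusted p = 1.35e-34). Of the 23 measured tubulin and microtubule genes, 4 fell (17.4%) and 4 rose (17.4%), beside 11.8% and 11.2% of all genes tested. Map1b, for another microtubule-associated protein, rose by 0.49.

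Arf3 encodes a small GTPase of Golgi traffic. It was 308, 298, 298, 304 and 288 CPM against 159, 158, 165, 154 and 150 CPM, again with no overlap (fell by 0.92, SE 0.03, adjusted p = 6.51e-29). The related Arf1 and Arf6 were not called (−0.03 and −0.06), Arf5 fell by 0.18, and Arf2 and Arf4 rose by 0.20 and 0.11. Nrn1, for neuritin, a small surface-anchored protein first known from neurons, was 78.5, 78.4, 80.9, 77.5 and 72.4 CPM against 36.1, 35.7, 37.5, 37.0 and 38.1 CPM (fell by 1.07, SE 0.04, adjusted p = 1.27e-21). Its 3′ UTR held none of the rarer words.

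**Figure D3:**
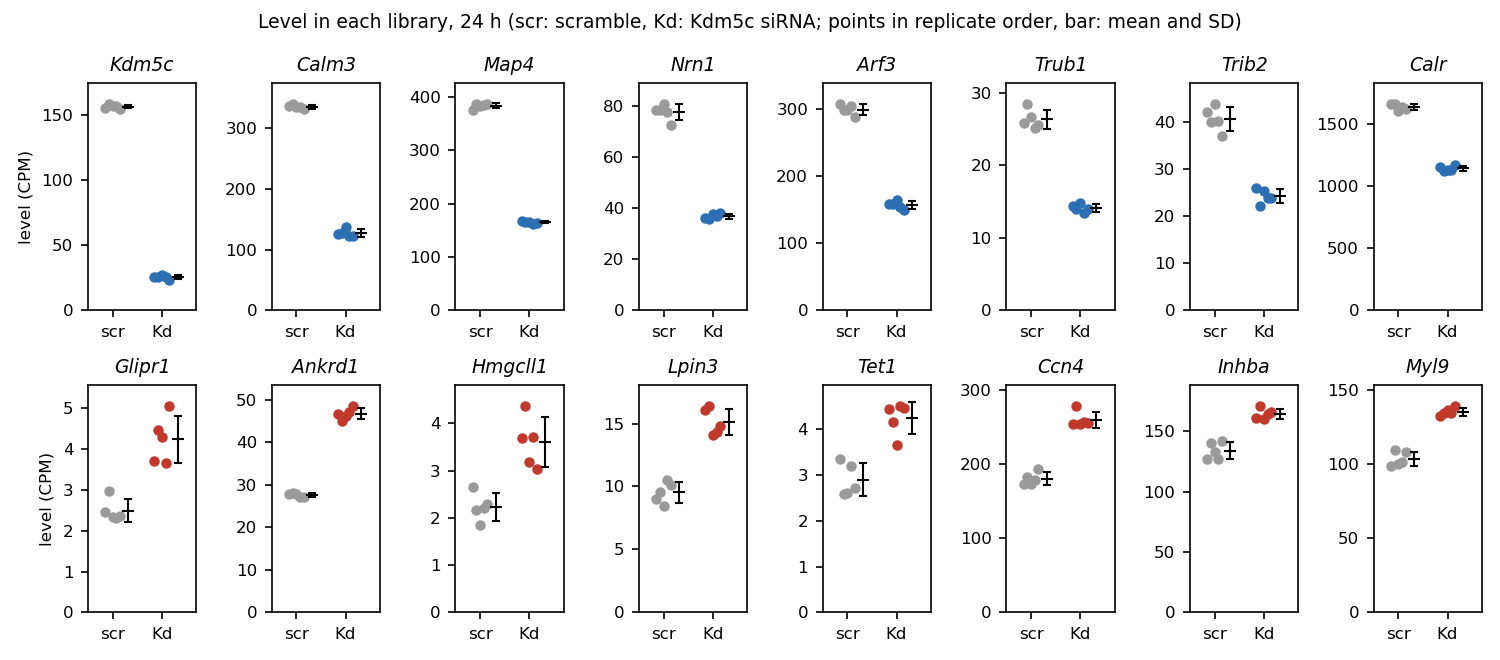
Level in CPM of 16 genes in each of the 5 scramble (scr, grey) and 5 Kdm5c siRNA (Kd, blue for falls and red for rises) libraries at 24 h, in replicate order, with mean and SD beside the points and axes from 0. In all 16 panels the groups do not overlap; Kdm5c falls from 155 to 159 CPM to 23.3 to 26.7 CPM, and Ankrd1 rises from 27.1 to 28 CPM to 45.1 to 48.6 CPM.

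The next falls were of genes at lower levels. Trub1, for a pseudouridine synthase that modifies transfer RNA, was 25.8, 28.5, 26.6, 25.2 and 25.6 CPM in scramble and 14.4, 13.9, 14.8, 13.4 and 14 in Kdm5c siRNA libraries (fell by 0.90). Gem, for a GTP-binding protein of the RGK family, was 11.1, 11.2, 10.3, 11.7 and 9.86 CPM against 5.73, 6.07, 6.38, 5.15 and 5.97 (fell by 0.88). Trib2, for a pseudokinase that steers protein degradation, was 42.1, 39.9, 43.9, 40.2 and 37.0 CPM against 26, 22.1, 25.3, 23.8 and 23.8 (fell by 0.75). In none of the 3 did the groups overlap. Its relative Trib1 was not called (0.02), and Trib3 rose by 0.32 (adjusted p = 0.0458, edgeR), a call lost without Kdm5c siRNA replicate 2 (0.17) or 5, or without scramble replicate 1, 2 or 3.

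Echdc1, for an enzyme that clears a faulty product of fatty acid synthesis, fell by 0.66, Pdcd7, for a component of the minor spliceosome, by 0.62, the zinc finger gene Plagl2 by 0.60 and Mfap3, for a microfibril-associated protein, by 0.56. Akt1, for a kinase of the insulin and growth factor pathway, was at 624 to 645 CPM in scramble and 412 to 442 CPM in Kdm5c siRNA libraries, and fell by 0.58; Akt2 was not called (−0.04). Dmp1, for a mineralised matrix protein, fell by 0.81 from a low level (2.25 to 3.19 CPM against 1.18 to 1.92), the lipid receptor gene S1pr1 by 0.54, and Mgp, for an inhibitor of calcification, by 0.52 (SE 0.14, adjusted p = 0.0089). So 10 of the 15 largest falls held a rarer word in the 3′ UTR, and Nrn1, Dmp1, Akt1, S1pr1 and Mgp did not. Of the 15 largest rises, 0 did, and words that rises share were not looked for. These 30 genes helped to rank the words, so the counts describe the sites printed above.

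The largest rises were smaller than the largest falls, and most came from genes at low levels. Ankrd1, for a stretch-responsive ankyrin repeat protein (chromosome 19, 36111961 to 36120099, minus strand), was 27.8, 28, 27.9, 27.2 and 27.1 CPM in scramble and 46.6, 45.1, 46.3, 47.2 and 48.6 CPM in Kdm5c siRNA libraries. The groups lay well apart (rose by 0.76, SE 0.06, adjusted p = 4.11e-11, edgeR). Glipr1, for a secreted protein of the CAP family, was 2.46, 2.98, 2.35, 2.31 and 2.36 CPM against 3.7, 4.47, 4.29, 3.67 and 5.06 CPM, and rose by 0.76 (SE 0.11, adjusted p = 8.89e-07). Here too no library of 1 group reached the other, although Kdm5c siRNA libraries ranged over more than 1 CPM.

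Lpin3, for 1 of the 3 lipins, enzymes that make diacylglycerol on the way to stored fat, was 9.0, 9.59, 8.44, 10.5 and 10.1 CPM in scramble and 16.1, 16.4, 14.1, 14.3 and 14.8 CPM in Kdm5c siRNA libraries (rose by 0.68, SE 0.06, adjusted p = 3.11e-11). Of its relatives, Lpin2 fell by 0.20 and Lpin1 was not called (−0.06). Hmgcll1, for a relative of an enzyme of ketone body synthesis, was 1.85 to 2.66 CPM against 3.04 to 4.37 CPM and rose by 0.70. Of the 15 measured genes of triglyceride assembly, 2 rose (13.3%) and 1 fell (6.67%), beside 11.2% and 11.8% of all genes tested. Without scramble replicate 2, 2 fell.

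Several of the other rises encode surface and secreted proteins. The chemokine gene Ccl9 was 20.2, 20.6, 19.2, 21.4 and 22.1 CPM against 33.0, 32.9, 30.6, 31.3 and 31.7 and rose by 0.63. Cd93, for a surface lectin best known from endothelium, rose by 0.61 from 9.88 to 11.4 CPM to 15.3 to 16.7 CPM, while the endothelial receptor gene Kdr was not called (0.16). Ccn4, for a matricellular protein of the Wnt pathway, was the most abundant, at 173, 183, 174, 179 and 194 CPM against 254, 279, 255, 257 and 256 (rose by 0.53). Kdm5c siRNA replicate 2 was the highest of its group there, and the groups did not overlap.

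The fibrillar collagen gene Col11a1 rose by 0.58, the serpin gene Serpinb9b by 0.57, Baalc by 0.65, Plcxd2 by 0.55 and Cavin2, for a coat protein of caveolae, by 0.53. Serpinb9b has close copies in the genome, so its value is uncertain. Celf4, for an RNA-binding protein, rose by 0.56 and the transcription factor gene Npas3 by 0.53, both from under 4 CPM. Tet1, for an enzyme that oxidises methylated cytosine, was 3.35, 2.59, 2.61, 3.2 and 2.71 CPM against 4.43, 4.14, 3.65, 4.5 and 4.45 (rose by 0.56, SE 0.10, adjusted p = 3.61e-05). Another 3 predicted gene models in this range are not named. The largest called rise of all, Apol9a (0.97, adjusted p = 0.0133, edgeR), was looked up after its value was seen: it was 8.74, 14.4, 12.5, 20.9 and 24.9 CPM against 24.2, 58.3, 21.9, 19.3 and 33.7. Its groups overlapped, it has a near-identical copy in the genome, and the call was lost without Kdm5c siRNA replicate 2 (0.61) and in a fit of the 24 h libraries alone.

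The libraries of 48 and 72 h, each day with its own scramble, show which early changes lasted. Genes picked for large values at 24 h tend to lie nearer to 0 in new libraries. At 48 h, 2254 genes were called higher (18.8%) and 2014 lower (16.8%), and at 72 h 2312 higher (19.2%) and 1888 lower (15.7%). Of the 142 larger falls, 109 were called lower again at 48 h (76.8%) and 88 at 72 h (62%), with medians of −0.42, −0.38 and −0.27 over the 3 days. Of the 140 larger rises, 105 were called higher again at 48 h (75%) and 81 at 72 h (57.9%), with medians of 0.41, 0.44 and 0.31. The 51 larger falls with a rarer word had medians of −0.43, −0.41 and −0.31, and 47 and 39 were called again; the 75 without had −0.39, −0.34 and −0.21, and 55 and 42 were called again. The genes with a word also stood at a higher level in scramble, a median of 31.9 CPM against 6.4 CPM, so their calls were easier to make.

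The change of the siRNA effect itself was tested as the difference of log2 fold changes between days. From 24 to 48 h it was called in 435 of all genes (3.62%), and from 24 to 72 h in 1871 (15.6%). By 72 h, 0 of the 142 larger falls had grown and 45 had shrunk, while of the 140 larger rises 17 had grown and 30 had shrunk. Kdm5c itself was at −2.62, −2.41 and −1.99 over the 3 days. Among the 15 largest falls, 9 had shrunk by 72 h and 0 had grown. Calm3 was at −1.39, −1.30 and −0.98, Map4 at −1.21, −1.14 and −0.84, and Trib2 at −0.75, −0.66 and −0.03. Arf3 shrank less (−0.92, −0.95 and −0.78), and for Echdc1 (−0.66, −0.66 and −0.50) and Mfap3 (−0.56, −0.50 and −0.49) no change was called.

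Among the 15 largest rises, 3 had grown by 72 h, and 4 had shrunk. Glipr1 rose by 0.76, 1.13 and 1.89, Hmgcll1 by 0.70, 1.40 and 1.55, and Lpin3 by 0.68, 1.19 and 1.28. Ankrd1 rose by 0.76, 1.36 and 0.75, so that its peak was at 48 h. Col11a1 rose by 0.58 at 24 h, was not called at 48 h (0.04) and fell by 0.53 at 72 h. Ccn4 rose by 0.53 and 0.46 and was not called at 72 h (0.07), and Npas3 was called at 24 h only (0.53, then 0.17 and 0.11).

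**Figure D4:**
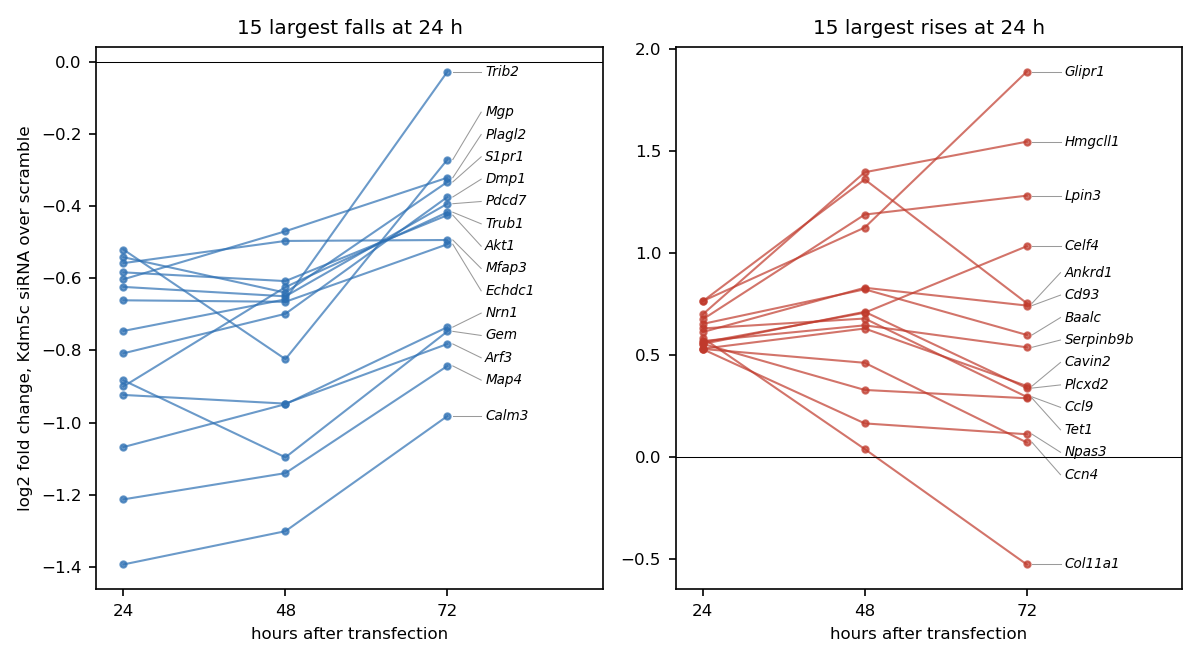
Log2 fold change (Kdm5c siRNA over scramble) at 24, 48 and 72 h of the 15 largest falls (left) and the 15 largest rises (right) of 24 h; each line is 1 gene, and each day has its own 5 scramble and 5 Kdm5c siRNA libraries. All 15 falls lie nearer to 0 at 72 h than at 24 h, whereas Glipr1, Hmgcll1, Lpin3 and Celf4 lie at 1.03 to 1.89 at 72 h.

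For the following genes the effect changed most between 24 and 48 h. Mcam, for a surface adhesion protein of the immunoglobulin family, was 18.6, 17.4, 15.9, 16.4 and 17.8 CPM against 21.1, 22.6, 23.2, 22.4 and 20 at 24 h (rose by 0.35), and then rose by 1.04 and 1.5. Lsp1, for a leukocyte protein that binds actin, rose by 0.52, 1.21 and 1.32, and the chloride channel gene Ano1 by 0.36, 1.03 and 0.79. Cytip, for a regulator of cytohesins, the exchange factors of Arf proteins, fell by 0.47 at 24 h, was not called at 48 h (0.24) and rose by 0.44 at 72 h; it was at most 2.65 CPM, and the 24 h call was lost without Kdm5c siRNA replicate 4 (−0.39). Effects that moved the other way from 24 to 48 h were those of Peg10, an imprinted gene derived from a retrotransposon (rose by 0.25, then fell by 0.22 and 0.31), Sema3a, for a guidance signal (rose by 0.20, not called at 48 h with −0.11, then fell by 0.54), and Parp16 (rose by 0.32, then −0.00 and 0.49, with a 24 h call lost in 9 alternatives).

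Beyond the largest changes, 69 gene lists were described by how many of their measured members were called and by their median, beside 11.2% higher, 11.8% lower and a median of 0.00 over all genes tested. The lists were written with earlier results of these data known, and some share members. Among the lists with more falls than rises were those of cholesterol and fatty acid synthesis, ribosomal proteins, lysosomes and DNA replication. Among those with more rises than falls were contractile actin, adhesion, matrix, transforming growth factor beta (TGF-beta) signalling and the secretory pathway.

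Cholesterol is made from acetyl-CoA by a chain of enzymes under the transcription factor SREBP2. Of its 24 measured genes, 15 fell, 0 rose and 9 were not called, with a median of −0.15, and 13 fell with Kdm5c siRNA replicate 2 and scramble replicate 5 both left out. Msmo1, for an enzyme late in the chain, was 207, 207, 202, 196 and 189 CPM in scramble and 165, 155, 168, 164 and 159 in Kdm5c siRNA libraries, without overlap (fell by 0.30, SE 0.03, adjusted p = 7.23e-12, edgeR). Acat2, for an enzyme at the start, fell by 0.22, Cyp51 by 0.17 and Srebf2, for SREBP2 itself, by 0.14. At 48 h, 23 of the 24 were called lower, with a median of −0.23, and at 72 h the median was −0.05. Of 18 genes of fatty acid synthesis and desaturation, 10 fell and 0 rose (median −0.07): Fasn, for fatty acid synthase, fell by 0.16, Acly by 0.11, Acaca by 0.10 and the elongase gene Elovl6 by 0.17.

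Other routes of biosynthesis leaned the same way. Of 24 genes of the pentose phosphate route and 1-carbon metabolism, 9 fell and 0 rose (median −0.05), and without Kdm5c siRNA replicate 4 5 fell. Pgls, for an enzyme of the pentose phosphate route, was 49.9, 48.2, 57.9, 58.9 and 55.6 CPM against 40.1, 40, 45.5, 41.4 and 41.4 (fell by 0.37), and Rpia, for the next isomerase, fell by 0.31. Glycolysis was nearly still, with 1 of 21 genes lower, Eno2 (fell by 0.33), and 0 higher. Of 46 lysosomal genes, 15 fell and 2 rose (median −0.06), with 9 falls without Kdm5c siRNA replicate 4 or without scramble replicate 1; the sialidase gene Neu1 fell by 0.17, the protease gene Ctsd by 0.10 and the membrane protein gene Lamp1 by 0.07.

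Of 78 cytosolic ribosomal protein genes, 28 fell and 0 rose, with a median of −0.06. That count ranged from 13, without scramble replicate 1, to 38, without Kdm5c siRNA replicate 3, and such genes have many near-identical copies, so single values are uncertain. Rpl27 fell by 0.31 and Rpl22l1 by 0.28. Of 40 genes of the mitochondrial ribosome 7 fell (17.5%) and 0 rose. Of 54 nuclear genes of the respiratory chain 7 fell (13%, near the 11.8% of all genes tested) and 0 rose. Of those 54, 4 fell without Kdm5c siRNA replicate 4 and 12 without Kdm5c siRNA replicate 3. Genes of ribosome assembly were hardly called at 24 h (3 of 39 rose, 1 fell; 1 rose without Kdm5c siRNA replicate 2, scramble replicate 1 or scramble replicate 3, and 5 without scramble replicate 5), and at 48 h 22 rose and 1 fell. Of 20 tRNA synthetase genes 3 rose and 0 fell, and of 44 translation factor genes 3 rose and 6 fell.

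Of 48 DNA replication genes, 12 fell and 0 rose (median −0.05). Uhrf1, which keeps DNA methylation through replication, was 244, 235, 242, 236 and 242 CPM against 201, 199, 209, 196 and 195 (fell by 0.26, SE 0.04, adjusted p = 3.81e-06), the nucleotide enzyme gene Dut fell by 0.25, the ligase gene Lig1 by 0.18, the clamp loader gene Rfc1 by 0.15 and Rpa1 by 0.15. The list's median was −0.00 at 48 h and 0.07 at 72 h. Of 49 mitosis genes 2 were higher and 3 lower, with 1 higher without Kdm5c siRNA replicate 5 or scramble replicate 1 and 5 without Kdm5c siRNA replicate 2. The regulators of G1, the phase before replication, went both ways, 7 of 27 up and 10 down: the cyclin gene Ccnd2 rose by 0.22, E2f5 by 0.31 and E2f6 by 0.25, and Tfdp1, for the partner of E2F factors, fell by 0.20.

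Contractile actin genes held one of the highest shares of rises. Of 38, 20 rose, 4 fell and 14 were not called (median 0.06), and 18 rose with both libraries named above left out; 2 fell without Kdm5c siRNA replicate 3, 4 or 5 or without scramble replicate 3. Myl9, for the regulatory light chain of smooth muscle myosin, was 98.6, 109, 100, 101 and 108 CPM in scramble and 132, 134, 136, 134 and 139 CPM in Kdm5c siRNA libraries, clear of one another (rose by 0.39, SE 0.05, adjusted p = 5.22e-07). The smooth muscle actin gene Actg2 rose by 0.29, Rhob, for a GTPase that drives stress fibres, by 0.17, and the cofilin gene Cfl2 by 0.16. Myl9 went on to 0.64 and 0.85, and Actg2 to 0.95 and 1.27, at 48 and 72 h. The muscle markers Myod1, Myog and Pax7 were at 0 in all 10 libraries.

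In the adhesion and matrix lists more genes rose than fell, and most were not called. Among 38 genes of integrins and focal adhesions, 16 rose and 3 fell (median 0.08). Itga3, for the alpha-3 integrin, was 78.8, 79.7, 80.4, 78.2 and 76.5 CPM against 94.9, 95.7, 96.1, 100 and 101 (rose by 0.31), and its membrane partner gene Cd151 rose by 0.34, Lims1 by 0.20 and Itgav by 0.17. Of 23 collagen chain genes 8 rose and 2 fell (median 0.09; 1 fell without any 1 of 8 libraries), with Col7a1 up by 0.45 and Col5a1 and Col5a2 each up by 0.18. The enzymes that modify and link collagen had 10 of 25 up and 0 down, among them Plod2 by 0.26 and the collagen chaperone gene Serpinh1 by 0.13. Of 32 matrix proteases and inhibitors 11 rose and 3 fell: Adamts12 rose by 0.52, the urokinase gene Plau by 0.35, Adam12 by 0.29 and the inhibitor gene Timp3 by 0.24, and Timp2 fell by 0.17. Of 45 matrix glycoprotein and proteoglycan genes 11 rose and 4 fell (2 falls without Kdm5c siRNA replicate 2 or scramble replicate 1).

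TGF-beta and activin are secreted ligands that act through SMAD factors on matrix and contractile genes. Of 32 genes of the pathway and its known targets, 15 rose, 1 fell and 16 were not called (median 0.10). Inhba, for the subunit of activin A, was 127, 140, 133, 127 and 142 CPM against 161, 171, 160, 164 and 166 (rose by 0.30, SE 0.04, adjusted p = 2.31e-06), and the ligand gene Tgfb2 rose by 0.32. Skil, for a SMAD inhibitor, rose by 0.16, and Tgfb1i1 by 0.17. YAP and TAZ are cofactors that carry mechanical signals to TEAD factors; of 31 genes of that pathway 8 rose and 1 fell (median 0.05), led by Ankrd1 and by Fjx1, which was 4.58 to 5.33 CPM against 6.07 to 7.91 CPM (rose by 0.53). Tead1 and the kinase gene Lats1 each rose by 0.13. Gdf11, for a ligand of the same superfamily, fell by 0.41.

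The secretory pathway rose in part. Of 29 endoplasmic reticulum genes of folding and quality control, 15 were called higher and 4 lower (median 0.08), with 2 lower without Kdm5c siRNA replicate 2 or without scramble replicate 2 or 5. The central chaperone gene Hspa5 was 864, 833, 799, 825 and 825 CPM against 963, 941, 910, 937 and 941 (rose by 0.18, SE 0.02, adjusted p = 5.7e-08), Dnajb9 rose by 0.30, Manf by 0.17 and Hsp90b1 by 0.13. Against these, Calr, for the calcium-binding chaperone calreticulin (chromosome 8, 84841850 to 84846934, minus strand), was 1660, 1660, 1600, 1630 and 1620 CPM against 1150, 1120, 1130, 1130 and 1170. No library overlapped, and Calr fell by 0.52 (SE 0.02, adjusted p = 1.95e-23), then by 0.39 and 0.08 at 48 and 72 h. Of 37 genes of Golgi and vesicle coats, 14 rose and 3 fell (median 0.05), with Creb3l1, for a membrane-bound transcription factor of secretory cells, up by 0.23.

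**Figure D5:**
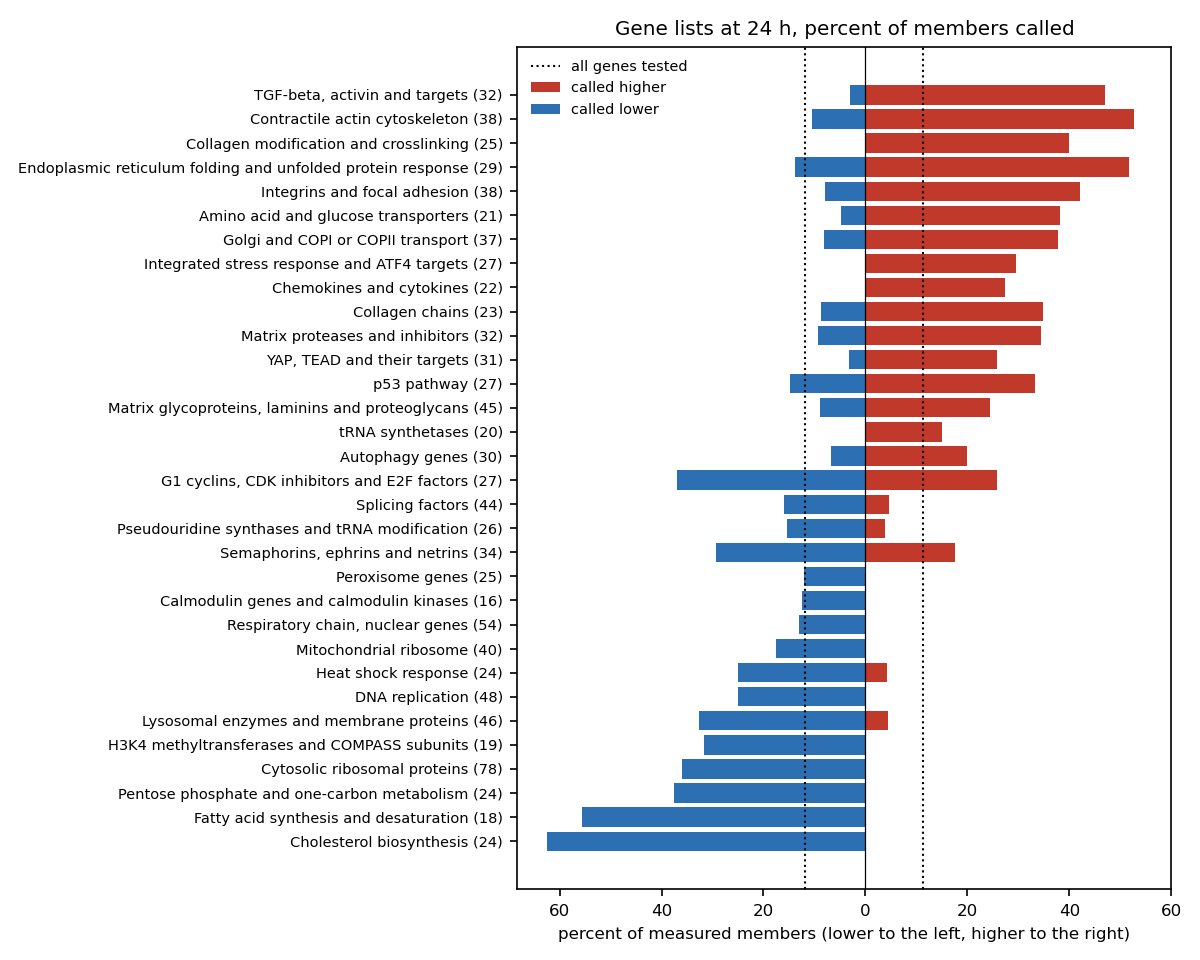
Percent of the measured members of 32 gene lists (number in brackets) called higher (red, to the right) or lower (blue, to the left) at 24 h; the dotted lines mark all genes tested, 11.2% higher and 11.8% lower. Shown are, of the lists with at least 15 measured members, those where the shares differed most in each direction; cholesterol biosynthesis (15 of 24 lower) and contractile actin (20 of 38 higher) lie near the ends.

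Stress and survival genes gave a mixed picture. The integrated stress response cuts general protein synthesis and turns on ATF4, a factor that drives amino acid transport and synthesis. Of 27 genes of that response 8 rose and 0 fell (median 0.09), but 5 rose without Kdm5c siRNA replicate 2, with a median of 0.05, and 5 also without scramble replicate 1 or 3. Slc7a11, for a cystine transporter, shows that library: it was 10.1, 12.9, 11.7, 13.1 and 13.6 CPM in scramble and 15.9, 24.4, 15, 15 and 16.1 CPM in Kdm5c siRNA libraries, with replicate 2 far above the others (rose by 0.50, SE 0.13, adjusted p = 0.00778), and the call was lost in a fit of the 24 h libraries alone. The stress sensor gene Sesn2 rose by 0.20 and Nupr1 by 0.23. Of 21 amino acid and glucose transporter genes 8 rose and 1 fell, and 5 rose without Kdm5c siRNA replicate 2 or without scramble replicate 1. Of 24 heat shock genes 6 fell and 1 rose, with Hspa1b down by 0.36 and Hspb8 by 0.23.

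Among the 25 genes of the BCL2 family and caspases, which decide whether a cell dies, 4 rose and 6 fell. Bcl2l2, for a protein that protects from death, fell by 0.45, and the killer genes Bak1 and Bad moved apart (rose by 0.22 and fell by 0.25). Of 27 p53 pathway genes 9 rose and 4 fell; the receptor gene Eda2r rose by 0.27, the kinase gene Plk2 by 0.21 and Gadd45a by 0.26, while Sesn1 fell by 0.29.

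Lists of guidance, insulin-like growth factor and cytokine genes went different ways. Of 34 semaphorin, ephrin and netrin genes and their receptors, 10 fell and 6 rose: the semaphorin receptor gene Plxna2 fell by 0.40, Ephb4 by 0.23 and Nrp1 by 0.19, and the ligand gene Sema3c rose by 0.37. Of 30 genes of the insulin-like growth factor axis 7 fell, Akt1 among them, and 5 rose. Igf2bp2, for a protein that binds growth factor messages, fell by 0.41 and its relative Igf2bp1 rose by 0.17. Of 22 chemokine and cytokine genes 6 rose and 0 fell (median 0.07), with Cxcl12, the most abundant one named, up by 0.24 from a mean of 2035 CPM, Csf1 by 0.19 and Ptgs2 by 0.22.

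Among the 8 measured genes of a list of KDM5, KDM1 and other histone demethylases, 2 rose and 2 fell, Kdm5c included. Of 19 genes of the writers of H3K4 methylation 6 fell and 0 rose (3 falls without scramble replicate 3): Kmt2d, for the main enhancer methyltransferase, was 391, 398, 403, 399 and 382 CPM against 342, 346, 342, 353 and 318 (fell by 0.21), and Setd1b fell by 0.12. Of 21 measured genes of the machinery that siRNAs themselves use, 4 rose (19%) and 3 fell (14.3%), beside 11.2% and 11.8% of all genes tested. Tnrc6c, for a silencing partner of Argonaute proteins, was 66.0, 71.9, 65.9, 65.9 and 63.9 CPM against 50.5, 48.8, 51.5, 49.6 and 48.6 (fell by 0.42). Its relative Tnrc6a rose by 0.23, Ago2 by 0.16 and Dicer1 by 0.14.

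Genes of fat cell identity were mixed at this stage. Of 28 adipogenic transcription factors and commitment genes, 5 rose (17.9%) and 3 fell (10.7%), beside 11.2% and 11.8% of all genes tested. Rxra, for the partner of the fat cell receptor PPAR-gamma, fell by 0.30 and Stat5a by 0.33, and Gata3, a brake on differentiation, rose by 0.32. Of the preadipocyte markers, Prrx1 fell by 0.26 and Ly6a rose by 0.34. Of 25 germline genes, a class that KDM5C is known to silence in other cells, 0 were in the count table. In the table of all genes 15 had any read, the highest mean was 0.149 CPM (Piwil2), and their summed level was 0.284 to 0.397 CPM in scramble and 0.266 to 0.441 CPM in Kdm5c siRNA libraries, ranges that overlap and lie near the limit of a few reads.

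Smaller groups were mixed as well. Of 11 genes of caveolae, the membrane pits that are abundant in fat cells, 3 rose and 2 fell: Cavin2 rose by 0.53, Cav2 by 0.14 and Cav1 by 0.09, and Ehd3 fell by 0.18 and Cavin1 by 0.09; the call of Ehd3 was lost without Kdm5c siRNA replicate 1 or 4 or scramble replicate 3. Of 11 genes of mature fat cells, 2 rose and 3 fell, with 1 fall without Kdm5c siRNA replicate 5 or without scramble replicate 2 or 5, and 1 rise without scramble replicate 3. The lipid droplet gene Plin4 fell by 0.42 and the lipase gene Pnpla2 rose by 0.18 (not called without scramble replicate 1). Of 18 clock genes 3 rose and 4 fell (2 falls without scramble replicate 4); Clock rose by 0.26, and Dbp and Tef, its output factors, fell by 0.35 and 0.18. Of 26 genes of pseudouridine enzymes and related RNA modification, 4 fell, Trub1 and Pus7l (0.23) among them, and 1 rose, Pus10 (0.19). Of 30 autophagy genes 6 rose and 2 fell, with the starter kinase gene Ulk1 up by 0.24.

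Interferon-stimulated genes, which transfected RNA can switch on, followed libraries more than siRNAs. Their mean log2 CPM was 3.42, 3.92, 3.75, 4.24 and 4.67 in scramble and 4.02, 5.15, 4.02, 3.91 and 4.24 in Kdm5c siRNA libraries, with the highest value in Kdm5c siRNA replicate 2. Of the 49, 3 rose and 1 fell, with 1 rise without Kdm5c siRNA replicate 2 or scramble replicate 1 and 7 without scramble replicate 5. The median of the list, 0.34, was 0.01 without Kdm5c siRNA replicate 2 and 0.59 without scramble replicate 5. Isg20 rose by 0.34, a call lost without Kdm5c siRNA replicate 2 or without scramble replicate 1, 2 or 3, and in a fit of the 24 h libraries alone. Gbp2, for an interferon-induced GTPase, was called (0.73, adjusted p = 0.0182, edgeR) and lost the call without Kdm5c siRNA replicate 2 (0.41) or scramble replicate 1 (0.60). The immunoproteasome gene Psmb10 fell by 0.42, a call lost, like that of Gbp2, in a fit of the 24 h libraries alone.

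Promoter windows were read for all the lists, and motifs of some of them are given here. The windows ran from 250 bases before to 50 after the start (RefSeq, GRCm38.p6), and 9075 of the 12016 genes had one. Promoters of the larger rises were poorer in CpG pairs, with a median observed over expected ratio of 0.56. The ratio was 0.73 for the larger falls and 0.77 for all genes. For all genes called higher it was 0.76, and for all called lower 0.79, so the lower ratio was that of the larger rises only. Motifs were searched on both strands. The ER stress element, CCAAT and CCACG with 9 bases between, was in 8 of 24 endoplasmic reticulum genes (33.3%) and in 0.165% of all promoters. CATTCC, the TEAD motif, was in 13 of 23 promoters of the YAP and TEAD list (56.5%) and in 14% of all. It was in 21 of 105 promoters of the larger rises (20%). Among promoters of all genes called higher it was in 13.8%, and of all called lower in 14.4%. The CArG box of serum response factor was in 5 of 32 contractile genes (15.6%) and in 1.53% of all. The windows below show the motif, with its bases in capitals, in genes described above.
Hspa5, chr2:34772020-34772048, plus strand: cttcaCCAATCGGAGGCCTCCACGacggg
Calr, chr8:84847070-84847098, plus strand: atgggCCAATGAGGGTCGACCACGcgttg
Ankrd1, chr19:36119954-36119975, plus strand: tgaattttCATTCCagacttag
Ankrd1, chr19:36120041-36120062, plus strand: gagagggtCATTCCtttggcag
Myl9, chr2:156775295-156775320, plus strand: agcagaggCCTAATAAGGccgggctg
The same element thus stood in genes that moved in opposite ways. Of the 8 genes with the ER stress element, Hspa5, Hsp90b1, Syvn1 and Canx rose (by 0.18, 0.13, 0.13 and 0.08), Calr, Creld2 and Dnajc3 fell (by 0.52, 0.12 and 0.07), and Pdia6 was not called (0.05). The call of Creld2 was lost without Kdm5c siRNA replicate 2 or scramble replicate 5 and that of Dnajc3 without any of 7 libraries. Of the 5 contractile genes with a CArG box, Myl9, Myl6, Actg1 and Cnn2 rose (by 0.39, 0.10, 0.09 and 0.07) and Srf, for serum response factor itself, fell by 0.12; the call of Cnn2 was lost without Kdm5c siRNA replicate 5. Among the 13 genes with the TEAD motif in the YAP and TEAD list, Ankrd1 rose, Crim1 fell by 0.10 and the others were not called. The genes of these motif counts that appear nowhere above were named after their values were seen.

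Motifs of some other lists were also commoner there than over all promoters. TGATGNAA, the composite site of ATF4 and C/EBP factors, was in 7 of 24 integrated stress response genes (29.2%) and 2.57% of all, the E2F motif TTTCCCGC in 8 of 41 replication genes (19.5%) and 2.53% of all, and CACGTG in 15 of 39 lysosomal genes (38.5%) and 12% of all. CACGTG was also in 8 of 22 promoters of the list of pseudouridine enzymes and RNA modification (36.4%). The sterol element TCACNCCAC was in 1 of 17 promoters of the cholesterol list (5.88%, Hmgcs1) and 1.32% of all. The lists were written from textbook knowledge, and matches were counted in called and uncalled members alike, so they describe the lists and not the response.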

How the data were processed

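RNA from 30 libraries was sequenced as poly(A) messages with a strand-specific kit, per the labels, and 10 libraries of 24 h are described here. The authors aligned reads with STAR 2.7.2a and used edgeR 3.26.8 and build GRCm38, per the submitters' processing notes; the read counter used and its gene models: not given in the sources used here. Deposited were 2 tables. The deposited count table held 12016 genes as raw read counts per gene, although it is named as normalized. The deposited CPM table held 55573 genes, and 100.0% of its values gave whole reads within 0.05 when multiplied back by library totals; the genes of the count table were those at 1 CPM or more in at least 20 libraries.

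Counts were fitted with edgeR 4.0.16 (R 4.3.3; TMM scaling, quasi-likelihood test, all 30 libraries, 24 residual degrees of freedom), with 1 contrast of siRNAs per day and the differences of contrasts between days. P-values were adjusted by Benjamini-Hochberg over all 12016 genes, and a gene was called at under 0.05. DESeq2 1.42.0, limma 3.58.1, other scalings and filters, a replicate block and left-out libraries were alternatives. The fit was tested on simulated data.

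Named genes were Kdm5c, the 15 largest called falls and rises with at least 2 CPM and no overlap between groups, up to 5 called members of each list with the smallest p, members of small lists, close paralogs, and the 5 largest changes of effect each way from 24 to 48 h. The members and lists were chosen with earlier results of these data known. Certain genes are not reported here. The 3′ UTRs came from GENCODE M21 transcripts, and promoters from RefSeq (GRCm38.p6). Precision is limited by depth at low levels: intervals and limits cover counting error only.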

Additional observations from a re-analysis of the deposited data

Results flagged for a closer look

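In some groups of 5 libraries, 1 library stood far from the other 4, which chance alone gives in about 1 in 20 groups. The lowest Kdm5c level was 23.3 CPM in Kdm5c siRNA replicate 5. Kdm5c siRNA replicate 3 had the highest Calm3 level of its group (138 CPM) and replicate 2 the highest Ccn4 level (279 CPM), and scramble replicate 2 had the highest Glipr1 level (2.98 CPM). In each of these genes the groups still did not overlap.

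For several genes the effect of the siRNA differed between days by a test of the difference itself, each value here being the later log2 fold change minus that of 24 h. From 24 to 48 h the difference was 0.21 for Kdm5c, 0.60 for Ankrd1, 0.70 for Hmgcll1, 0.51 for Lpin3, 0.28 for Trub1 and −0.54 for Col11a1. From 24 to 72 h the falls that had become smaller were those of Kdm5c (0.63), Trib2 (0.72), Trub1 (0.48), Dmp1 (0.43), Calm3 (0.41), Map4 (0.37), Nrn1 (0.33), Plagl2 (0.28), Akt1 (0.16) and Arf3 (0.14). The rises of Glipr1 (1.12), Hmgcll1 (0.85) and Lpin3 (0.61) had become larger over the same time, and those of Ccl9 (−0.34), Npas3 (−0.42) and Ccn4 (−0.46) smaller. For Col11a1 (−1.11) a rise had turned into a fall.

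Outside the count table lay 20302 genes with reads that its filter had left out. With no filter, 83 of them were called at 24 h, 42 higher and 41 lower.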

How the results depend on the processing

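Of the 2765 genes called at 24 h, the count was 2736 to 2819 with other scalings, DESeq2 or limma, 2430 with no filter, and 2293 to 2649 when 1 library was left out. A fit of the 10 libraries of 24 h alone called 2890 genes, 2573 of them shared with the main fit. Leaving out 1 library gave 1113 to 1286 genes called higher and 1180 to 1385 lower. Kdm5c and the 15 largest falls and rises kept their direction and their call in all 615 values that the 20 alternatives gave for them. The falls and rises were picked for large changes without overlap in these same libraries, which favours this. Of all 321 called genes followed, 56 lost the call in at least 1 alternative, and 0 values were called with the direction reversed. Genes called and over 1.5-fold numbered 36, 15 with limma on log2(CPM + 2), 119 with no filter, and 37 to 55 when 1 library was left out, the most without scramble replicate 5. A change of effect to 48 h was called in 190 of the genes called at 24 h, in 132 to 179 when 1 library was left out, and in 114 with Kdm5c siRNA replicate 2 and scramble replicate 5 both left out. For 72 h the count was 765 and 580 to 753. The causes were not tested. The correlations of deviations between same-numbered libraries were 0.243, −0.067, 0.122, −0.115 and −0.02. Those between differently numbered libraries ranged from −0.436 to 0.501. Such values cannot show whether the libraries were paired by design. A replicate block gave 2990 calls, 1457 of them higher. Depth limits genes at a few CPM, where 1 library can decide a call.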
